A study of Drosophila melanogaster with 16 samples.

Results

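The genes described here are 9 genes of trehalose and glycogen metabolism in Drosophila melanogaster larvae (Tps1, CG5171, CG5177, Treh, Tret1-1, UGP, GlyS, AGBE and GlyP). They were chosen by symbol, for their roles in making, splitting and moving trehalose and in building and degrading glycogen, and with earlier results of these data known. All 9 were found among the 10128 genes of the deposited table. RNA came from whole wild-type (WT) larvae. They were raised for 24 h from the first instar on 10% yeast, called LSD for low sugar, and as early second instars went either to LSD again or to HSD, the same yeast with 15% sucrose added. The 14 libraries comprise 4 of LSD after 8 h and, on HSD, 3 after 4 h, 3 after 8 h and 4 after 16 h. HSD 4 h replicate 2 and HSD 8 h replicate 1, which the labels mark as removed outliers, were not analysed here. Diet was matched for time only at 8 h, and the comparisons of HSD at 4 h and at 16 h with LSD differ in diet and in time. All 3 comparisons with LSD share the same LSD libraries.

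Trehalose is the main circulating sugar of insects. The fat body makes it from glucose 6-phosphate and UDP-glucose, releases it into the hemolymph through a transporter, and other tissues split it to glucose with trehalase. Glycogen is the stored glucose polymer of fat body and muscle. Glycogen synthase extends its chains from UDP-glucose, a branching enzyme adds branches, and glycogen phosphorylase releases glucose 1-phosphate, which can enter trehalose synthesis again.

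Levels are normalised read counts, the authors' read counts scaled by an effective library size. Means are given ± SD over the libraries of a group. Differences were computed as log2(value + 0.5) and are given with a standard error (SE), and folds are these differences turned back to a ratio. A gene was called changed at a limma p-value under 0.05 after Benjamini-Hochberg adjustment over 10114 genes. Libraries held 16300308 to 25284073 recovered reads, and a member had between 210 and 52953 reads in a library. Nothing in the labels ties replicates to separate cultures, and the p-values therefore reflect only how far these samples differ, which may be technical. In whole larvae, more cells of a type and more RNA per cell cannot be told apart.

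LSD replicates 2 and 3 and HSD 16 h replicate 2 stood apart in cuticle transcripts. The cuticle gene TwdlJ lay at 17.4 and 33.6 in these LSD libraries against 0.938 and 0.727 in LSD replicates 1 and 4. It lay at 12.55 in HSD 16 h replicate 2 and at 0 to 0.147 in the other 3 libraries of that group, at 15.8 to 42.4 in HSD at 8 h and at 0 to 0.890 in HSD at 4 h. LSD replicate 2 also stood apart in the summed level of 4 fat body markers, at 6680 against 3414 to 3955 in the other LSD libraries. Most of that sum was Rfabg, a fat body lipoprotein gene, at 6029. Results that change without these libraries are given beside the result.

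At 8 h, Tps1, CG5171, Tret1-1, AGBE and GlyP rose on HSD and no member fell. Of all genes 34.4% were called in that comparison, 17.5% higher and 16.9% lower, and 37.7% had groups without overlap, beside 5 of 9 members by either measure. The members' median log2 difference was 0.44, against -0.01 over all genes. Since earlier results were known when the members were chosen, these contrasts with all genes are a description only, here and at the other times. At 4 h on HSD the same 5 members were higher than in LSD and none was lower, beside 24.2% of all genes called (12.8% higher, 11.4% lower) and 28.9% without overlap. The member median there was 0.22, against 0.01. At 16 h these 5 rose again, joined by GlyS and UGP, and Treh fell, so that 8 of 9 were called and without overlap. Of all genes 39.7% were called at 16 h (19.4% higher, 20.4% lower) and 36.5% had no overlap, and the member median was 0.48. The split over all genes was 1959 higher and 2059 lower, or 2440 and 1670 under quantile normalization. Without the 3 cuticle-rich libraries, an alternative chosen after seeing the data, 5, 5 and 7 members were called at 8, 4 and 16 h. The share of all genes called in this setting is not given here. At 8 h it cannot separate diet from cuticle level. The HSD libraries at 8 h, with TwdlJ at 15.8 to 42.4, stayed in, against 0.938 and 0.727 in the LSD libraries left.

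The HSD times were also compared with each other. From 4 h to 16 h, GlyP and UGP rose and Tret1-1, AGBE and CG5177 fell, beside 35.9% of all genes called (16.6% higher, 19.2% lower). Groups did not overlap for 6 of 9 members, beside 45.7% of all genes. Under quantile normalization GlyP, UGP and GlyS were higher there and no member was lower, and the split over all genes went from 1683 higher and 1946 lower to 2161 and 1553. From 4 h to 8 h GlyP alone rose, beside 9.21% of all genes called (4.71% higher, 4.5% lower), and groups did not overlap for 5 members, beside 34.5% of all genes. The split over all genes was 476 higher and 455 lower, or 391 and 638 under quantile normalization. From 8 h to 16 h Treh alone fell, beside 29.5% of all genes called (14.1% higher, 15.4% lower), and groups did not overlap for 6 members, beside 45.4% of all genes. Under quantile normalization 4 members were called there, GlyS, UGP and CG5171 higher and Treh lower, and the split over all genes went from 1424 higher and 1556 lower to 2477 and 1114. The authors' deposited table gave the call made here for all 9 members in each of its 5 comparisons.

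**Figure D1:**
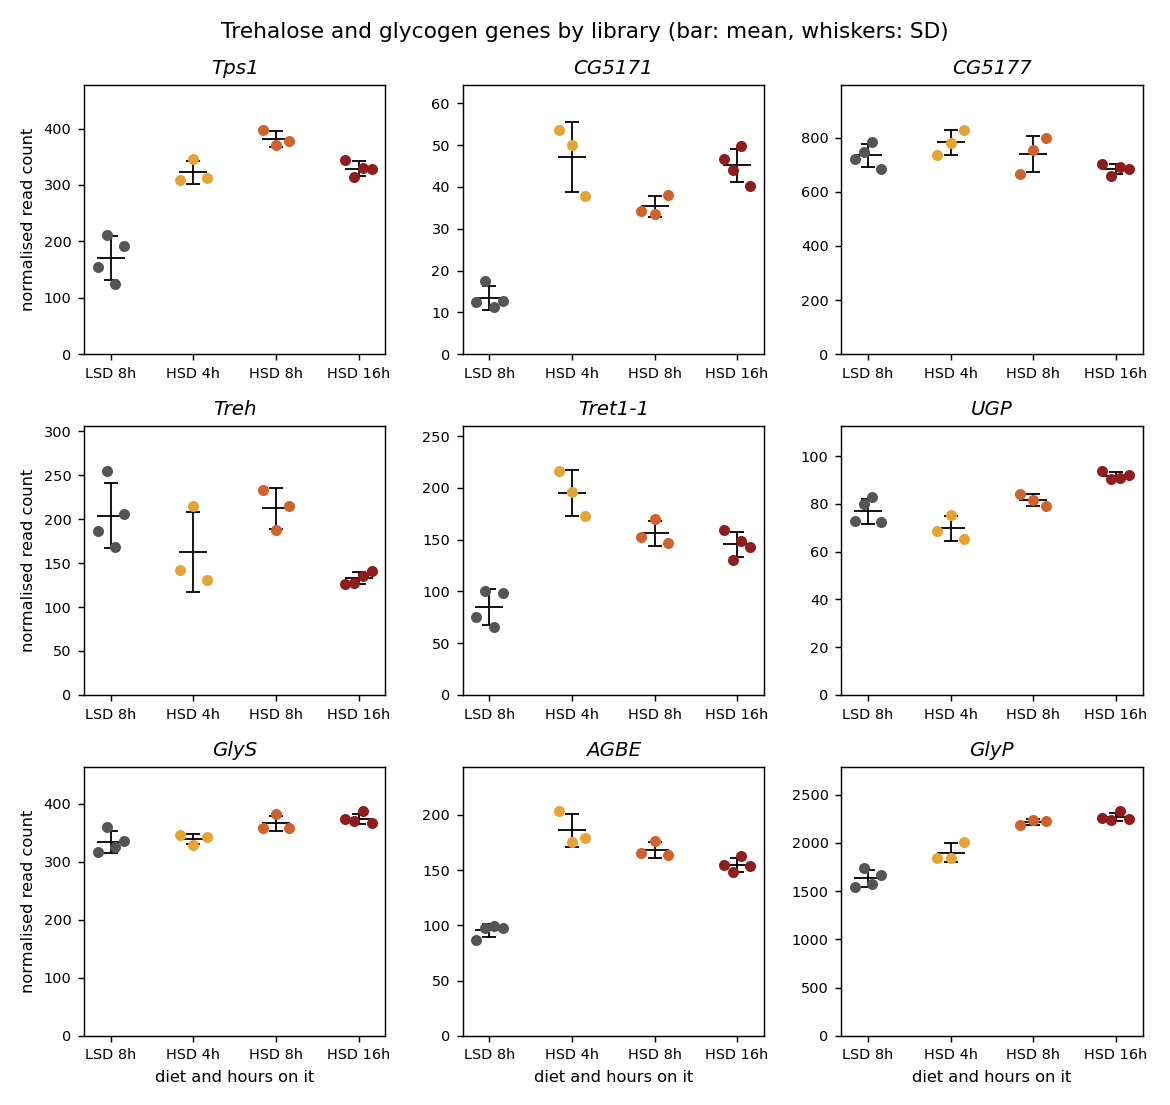
Normalised read count (y axis, from 0) of each of the 9 genes in each library (points), by diet and hours on it (x axis), with group mean (bar) and SD (whiskers). Tps1, CG5171, Tret1-1, AGBE and GlyP lay above every LSD library at all HSD times, while CG5177 overlapped LSD at all 3.

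Trehalose synthesis was represented by Tps1 and a pair of phosphatase genes. Tps1 (FBgn0027560, 2L 4388327 to 4392778, BDGP6.54), which encodes trehalose-6-phosphate synthase, lay at 155, 212, 124 and 192 in LSD replicates 1 to 4. It lay at 309, 346 and 311 in HSD at 4 h, at 398, 370 and 379 at 8 h and at 344, 313, 331 and 329 at 16 h. Every HSD library was above every LSD library. Against LSD (171 ± 39.1, n = 4), Tps1 rose 2.28-fold at 8 h to 382 ± 14.2 (n = 3), a log2 difference of 1.19 with an SE of 0.14 (adjusted p = 5.74e-05). The rise was 1.93-fold at 4 h (adjusted p = 0.000324) and 1.97-fold at 16 h (adjusted p = 0.000102). Its 3 values at 8 h were above those at 4 h and at 16 h, yet neither difference passed the test (log2 0.25, adjusted p = 0.321, and log2 -0.22, adjusted p = 0.268). In the latter comparison the 2 groups alone in the fit gave adjusted p = 0.0133, and the difference turned to 0.02 under quantile normalization.

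The neighbouring genes CG5171 (FBgn0031907, 2L 7401335 to 7404727) and CG5177 (FBgn0031908, 2L 7405227 to 7408600) are both annotated as trehalose-phosphatases, which remove the phosphate from trehalose 6-phosphate. They lie on the same strand 499 bases apart, with 1 other annotated gene in the gap. CG5171 was the member with the lowest level on LSD, at 12.4, 17.5, 11.2 and 12.7 in replicates 1 to 4. It lay at 53.7, 50.1 and 37.8 in HSD at 4 h, at 34.3, 33.5 and 38.2 at 8 h and at 46.7, 44.0, 49.7 and 40.3 at 16 h. The HSD values did not overlap those of LSD at any time. Its rise was 3.43-fold at 4 h (log2 1.78, SE 0.15, adjusted p = 4.54e-06), 2.60-fold at 8 h (adjusted p = 3.11e-05) and 3.31-fold at 16 h (adjusted p = 1.97e-06). Within HSD its difference between 8 h and 4 h (log2 -0.40, adjusted p = 0.127) did not pass, nor did that between 16 h and 8 h (log2 0.35, adjusted p = 0.0922), although the 16 h values were all above those at 8 h. The latter passed under quantile normalization (0.0266), with the 2 groups alone in the fit (0.0169), with array weights (0.0417) and without LSD replicate 2 (0.0358).

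CG5177, in contrast to its neighbour, lay at 734 ± 42.6 on LSD (n = 4), 782 ± 45.9 in HSD at 4 h (n = 3), 740 ± 67.0 at 8 h (n = 3) and 684 ± 20.1 at 16 h (n = 4). It was not called in any comparison with LSD, and the 95% interval of its log2 difference at 8 h ran from -0.15 to 0.16. Between 4 h and 16 h on HSD it fell by 0.19 on the log2 scale, at the edge of the threshold (adjusted p = 0.0497, 0.0239 to 0.428 over 27 alternatives). That call ended under 16 of the 27, among them median-of-ratios scaling (0.0605), edgeR's quasi-likelihood test (0.0507) and leaving out the cuticle-rich libraries (0.097). Set against each other within a library, the log2 ratio of CG5171 to CG5177 was -5.79 ± 0.30 on LSD and -4.39 ± 0.11 in HSD at 8 h, a difference of 1.40. The ratio was higher in every HSD library than in every LSD library (exact permutation test over libraries, two-sided, p = 0.0286, the smallest the design allows, and 0.0286 adjusted over 9 ratio tests). At 4 h and 16 h the ratio differed from LSD by 1.72 and 1.86, with the same p. The exons of CG5177 overlap those of CG5181 on the other strand over 68 bases. How the counting split reads shared by related genes such as CG5171 and CG5177 is not given in the labels.

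UGP (FBgn0035978, 3L 9350867 to 9358935), which encodes the UTP-glucose-1-phosphate uridylyltransferase that makes UDP-glucose for both trehalose and glycogen, differed from LSD late and by little. Its level was 76.9 ± 5.19 on LSD (72.3 to 82.7, n = 4), 69.7 ± 5.17 in HSD at 4 h (65.2 to 75.4, n = 3), 81.7 ± 2.40 at 8 h (79.3 to 84.1, n = 3) and 91.9 ± 1.53 at 16 h (90.6 to 93.9, n = 4). The 16 h libraries were above all others. UGP was called against LSD at 16 h only (1.19-fold, log2 0.26, SE 0.06, adjusted p = 0.00396; adjusted p = 0.313 at 8 h and 0.125 at 4 h). On HSD it rose 1.32-fold from 4 h to 16 h (adjusted p = 0.000435), with intermediate steps of log2 0.23 (adjusted p = 0.0513) and 0.17 (adjusted p = 0.0594). Both steps passed without LSD replicate 3 (0.0336 and 0.042), without HSD 4 h replicate 3 (0.0291 and 0.0447) and with array weights (0.0125 and 0.0149). The step from 4 h also passed without LSD replicate 2 (0.0473) or 4 (0.0462), without the cuticle-rich libraries (0.0367) and with a filter of 5 or more (0.0483), and the step to 16 h under quantile normalization (0.00192) and with the 2 groups alone in the fit (0.0182). Its exons overlap those of PGRP-LF on the other strand over 602 bases, 19.98% of their length. PGRP-LF lay at 4.29 ± 0.317 on LSD and at 5.98 to 7.33 on average in the HSD groups. The part of the overlap in the counts of UGP was not tested.

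Treh (FBgn0003748, 2R 21074018 to 21088945) encodes trehalase, which splits trehalose to glucose. It lay at 187, 255, 168 and 206 in LSD replicates 1 to 4, at 142, 215 and 131 in HSD at 4 h (replicates 1, 3 and 4), at 233, 188 and 215 at 8 h and at 127, 127, 136 and 141 at 16 h. The 8 h values lay within the LSD range, and only the 16 h libraries were all below LSD. Treh fell by 0.60 on the log2 scale at 16 h, which took the mean of 204 ± 37.4 to 133 ± 7.07 (n = 4 in each group, SE of the difference 0.15, adjusted p = 0.00786). Without the 3 cuticle-rich libraries this difference was -0.54 (adjusted p = 0.0515).

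From 8 h to 16 h on HSD Treh also fell, by 0.67 on the log2 scale (SE 0.17, adjusted p = 0.01). At 8 h Treh did not differ detectably between diets (log2 0.07, 95% interval -0.29 to 0.43, adjusted p = 0.792). At 4 h the difference was -0.34 (adjusted p = 0.158), and without HSD 4 h replicate 3, the highest of that group, it was -0.56 (adjusted p = 0.016). Without the same library the difference between 8 h and 4 h on HSD passed too (log2 0.41, adjusted p = 0.163 with it, and log2 0.63, adjusted p = 0.0278 without it). The exons of Treh overlap those of Rbpn-5 on the other strand over 12.8% of their length, and the mean level of Rbpn-5 lay between 22.1 and 26.96 in the groups.

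Tret1-1 (FBgn0050035, 2R 11665768 to 11674782), which encodes a trehalose transporter, lay at 75.3, 100.5, 66.0 and 98.9 in LSD replicates 1 to 4. It lay at 217, 196 and 173 in HSD at 4 h, at 153, 170 and 147 at 8 h and at 159, 130, 149 and 143 at 16 h. The level was highest at 4 h, and every HSD library exceeded every LSD library. Against LSD (85.2 ± 17.2, n = 4) it rose 2.31-fold at 4 h to 195 ± 22.1 (n = 3), a log2 difference of 1.21 with an SE of 0.14 (adjusted p = 4.78e-05), 1.86-fold at 8 h (adjusted p = 0.000429) and 1.72-fold at 16 h (adjusted p = 0.000488). Its level on HSD fell by 0.42 on the log2 scale from 4 h to 16 h (adjusted p = 0.0328, and between 0.00863 and 0.133 in the alternatives). Among other alternatives, this fall lost its call under quantile normalization (0.101), without HSD 4 h replicate 1 (0.133) or 3 (0.0765) and without HSD 16 h replicate 2 (0.0827), 3 (0.054) or 4 (0.0646). Reads of a similar transporter copy, Tret1-2, which was not analysed here, could have been assigned to it.

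The balance of synthesis and breakdown transcripts was measured as the log2 ratio of Tps1 to Treh within a library, which does not depend on library scaling. It was -0.27 ± 0.14 on LSD (n = 4), 1.02 ± 0.29 in HSD at 4 h (n = 3), 0.85 ± 0.11 at 8 h (n = 3) and 1.31 ± 0.09 at 16 h (n = 4). Treh had the higher normalised read count in all 4 LSD libraries and Tps1 in all 10 HSD libraries. These counts are not scaled by exon length, which is 2.92 kb for Tps1 and 4.37 kb for Treh. Per kb of exon, Tps1 was the higher on LSD too, at 53.1, 72.5, 42.3 and 65.7 in replicates 1 to 4, against 42.7, 58.4, 38.5 and 47.2. The sign of the ratio on LSD thus depends on exon length, while the differences from LSD do not. The differences from LSD were 1.29, 1.13 and 1.58 at 4, 8 and 16 h (exact permutation test, two-sided, p = 0.0286 each, the smallest the design allows).

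**Figure D2:**
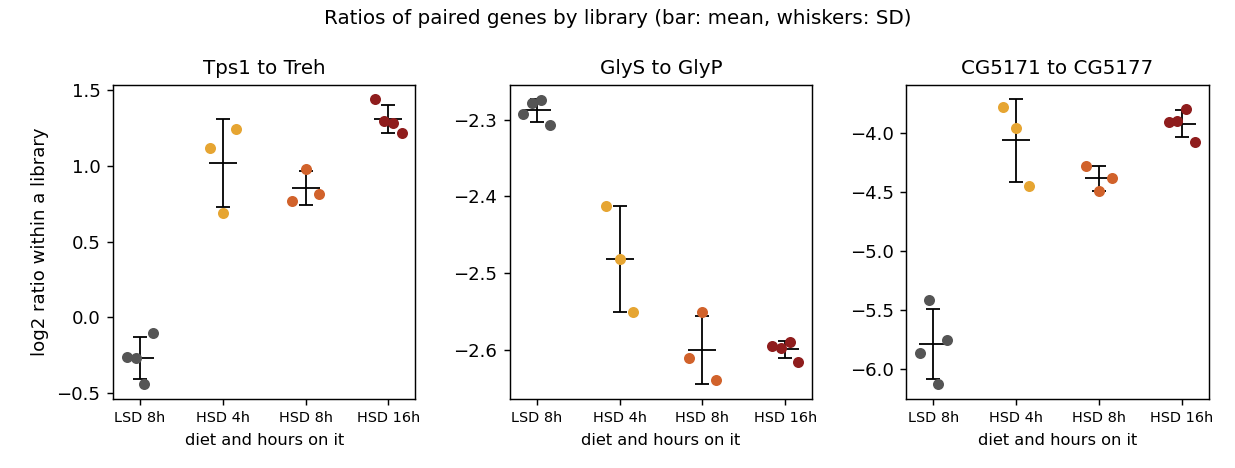
Log2 ratio within a library (y axis) for 3 pairs of genes, by diet and hours on it (x axis), with each library as a point, the group mean as a bar and the SD as whiskers. In all 3 panels the LSD libraries are apart from the 10 HSD libraries, upward on HSD for Tps1 to Treh and CG5171 to CG5177 and downward for GlyS to GlyP.

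Of the glycogen enzymes, the branching enzyme gene changed most. AGBE (FBgn0053138, 2R 13171401 to 13174796) lay at 87.2, 97.5, 99.6 and 97.9 in LSD replicates 1 to 4. It lay at 203, 176 and 179 in HSD at 4 h, at 165, 177 and 163 at 8 h and at 155, 148, 163 and 154 at 16 h. The groups on HSD were all apart from LSD, with the highest mean at 4 h. AGBE rose 1.94-fold at 4 h, its mean going from 95.5 ± 5.66 (n = 4) to 186 ± 14.9 (n = 3), with a log2 difference of 0.96 and an SE of 0.07 (adjusted p = 1.41e-06), 1.76-fold at 8 h (adjusted p = 4.44e-06) and 1.62-fold at 16 h (adjusted p = 5.03e-06). Between 4 h and 16 h on HSD it fell by 0.26 on the log2 scale (adjusted p = 0.00864), except under quantile normalization (log2 -0.12, adjusted p = 0.234).

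GlyS (FBgn0266064, 3R 15141843 to 15147531, glycogen synthase) differed little between groups. Its level was 334 ± 18.8 on LSD (316 to 360, n = 4), 340 ± 8.64 in HSD at 4 h (330 to 346, n = 3), 366 ± 13.5 at 8 h (358 to 381, n = 3) and 374 ± 8.58 at 16 h (368 to 387, n = 4). The groups overlapped at 4 h and 8 h and not at 16 h, where GlyS was called at 1.12-fold (log2 0.16, SE 0.05, adjusted p = 0.0179). That call ended without LSD replicate 1 (0.0545) and with the 2 groups alone in the fit (0.0561). At 8 h the log2 difference was 0.13 (95% interval 0.02 to 0.25, adjusted p = 0.0732), which passed with array weights (0.016) and without LSD replicate 2 (0.0202) and was -0.00442 under quantile normalization. From 4 h to 16 h on HSD the difference of 0.14 did not pass (adjusted p = 0.0542), but did under quantile normalization (0.000603), with array weights (0.04), with the 2 groups alone in the fit (0.0429) and without LSD replicate 1 (0.0496), 2 (0.0311) or 3 (0.0495).

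GlyP (FBgn0004507, 2L 2130813 to 2137296, glycogen phosphorylase) had the highest normalised read count of the 9 in every library. It lay at 1547, 1744, 1573 and 1666 in LSD replicates 1 to 4, at 1841, 1841 and 2012 in HSD at 4 h, at 2187, 2235 and 2231 at 8 h and at 2258, 2237, 2328 and 2253 at 16 h. The groups were ordered LSD, 4 h, 8 h and 16 h without any overlap. GlyP rose 1.36-fold at 8 h, its mean going from 1633 ± 90.0 (n = 4) to 2218 ± 26.7 (n = 3), with a log2 difference of 0.44 and an SE of 0.06 (adjusted p = 9.47e-05), and 1.39-fold at 16 h (adjusted p = 2.48e-05). The smaller rise at 4 h (1.16-fold, adjusted p = 0.0128) lost its call under quantile normalization (0.0671), with the 2 groups alone in the fit (0.119) and without HSD 4 h replicate 4 (0.0622).

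From 4 h to 8 h on HSD, GlyP rose 1.17-fold (log2 0.23, adjusted p = 0.0363, and between 0.0144 and 0.159 in the alternatives). Among other alternatives, this call ended without any 1 of HSD 4 h replicates 1 (0.114) and 3 (0.0794), of the 3 HSD 8 h libraries (0.0846 to 0.105) or of HSD 16 h replicates 1 (0.0509), 2 (0.0542) and 4 (0.0573), and with the 2 groups alone in the fit (0.0883). From 8 h to 16 h its difference was 0.03 (adjusted p = 0.694). Between 4 h and 16 h it rose by 0.26 on the log2 scale (adjusted p = 0.00336).

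The log2 ratio of GlyS to GlyP within a library was tight in each group. It was -2.29 ± 0.01 on LSD (n = 4), -2.48 ± 0.07 in HSD at 4 h (n = 3), -2.60 ± 0.05 at 8 h (n = 3) and -2.60 ± 0.01 at 16 h (n = 4). All 10 HSD libraries lay below the 4 LSD libraries. The ratio was lower than on LSD by 0.31 at both 8 h and 16 h (differences -0.31 and -0.31) and differed by -0.19 at 4 h (exact permutation test, two-sided, p = 0.0286 each, the smallest the design allows).

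**Figure D3:**
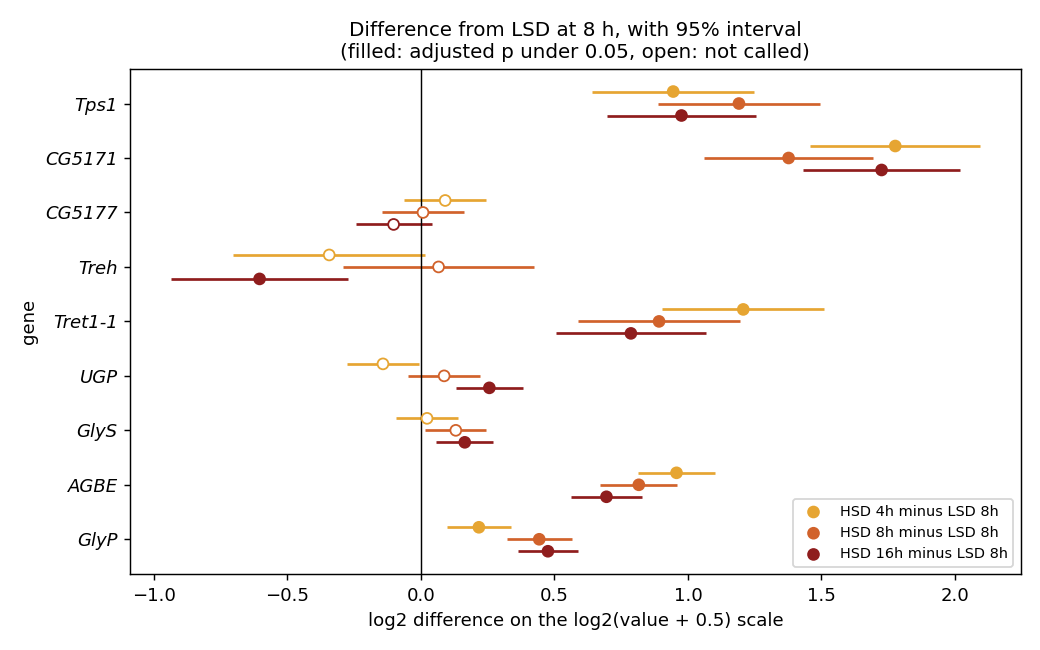
Log2 difference from LSD at 8 h (x axis, log2(value + 0.5) scale) of each gene (y axis) at 4, 8 and 16 h on HSD, with the 95% interval as a line and filled points for adjusted p under 0.05. CG5171 has the largest rise at each time and Treh the 1 call below 0, at 16 h.

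The spread between LSD libraries was not the same for all members. On LSD the coefficient of variation (SD over mean) was 22.9% for Tps1, 18.3% for Treh, 20.2% for Tret1-1 and 20.7% for CG5171, and 5.51% to 6.75% for the other 5 genes. LSD replicate 2 was the highest of its group for 6 of the 9 genes and replicate 3 the lowest for 4, among them Tps1, Treh, Tret1-1 and CG5171 for both. Both libraries were high in TwdlJ. They were also at opposite ends of the LSD group in collagen transcripts and in part of the fat body markers, with replicate 2 the highest and replicate 3 the lowest. Rfabg, the gene of a fat body lipoprotein, lay at 3456, 6029, 3105 and 3508 in LSD replicates 1 to 4, and Apoltp, another, at 265, 495, 190 and 277. The fat body markers Mtp (158, 156, 118 and 169) and Lsp1gamma (0.156, 0.352, 0.318 and 0.485) were instead highest in replicate 4. The collagen gene Cg25C, on the hemocyte list, lay at 1962, 3098, 1471 and 1912. The part of this difference in the spread of the 4 genes was not tested. Without LSD replicate 2, Tps1 was still called at 8 h (limma adjusted p = 2.23e-05), the log2 differences at 8 h were 1.51 for CG5171 (7.56e-06) and 0.98 for Tret1-1 (0.00027), and that of Treh at 16 h was -0.49 (0.0209). With all libraries they were 1.38, 0.89 and -0.60, so leaving out this highest library made these rises larger and the fall smaller. Over 27 alternatives, replicate 3 left out among them, the differences at 8 h ran from 1.05 to 1.3 for Tps1. They ran from 1.3 to 1.51 for CG5171 and 0.778 to 0.979 for Tret1-1, and from -0.69 to -0.456 for Treh at 16 h. In HSD at 16 h no member's coefficient of variation exceeded 8.81%.

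Compared per exon length (normalised read count per kb of exons merged over the annotated transcripts), CG5177 and GlyP were far above the rest. On LSD the levels per kb were 654 ± 37.9 for CG5177 and 519 ± 28.6 for GlyP (n = 4), followed by GlyS at 100 ± 5.62. Tps1 (58.4 ± 13.4), Treh (46.7 ± 8.57) and AGBE (41.1 ± 2.44) came next, and each overlapped the next of these 3. UGP and Tret1-1 (25.5 ± 1.72 and 25.2 ± 5.10) overlapped as well, and CG5171 was last at 7.78 ± 1.61. CG5177 was thus the dominant of the 2 phosphatase transcripts on both diets, since CG5171 reached 27.3 ± 4.80 per kb at its highest, at 4 h on HSD. On HSD at 16 h GlyP (722 ± 12.8 per kb) was above CG5177 (609 ± 17.9) with no overlap, whereas at 8 h the ranges overlapped. Tps1 was above GlyS at 4 h and 8 h without overlap, at 131 ± 4.85 against 110 ± 4.04 per kb at 8 h. At 4 h Tret1-1 lay at 51.1 to 64.2 per kb, above Treh at 30.1 to 49.2, and at 16 h at 38.6 to 47.2, above Treh at 29.0 to 32.4. At 8 h the pair overlapped.

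**Figure D4:**
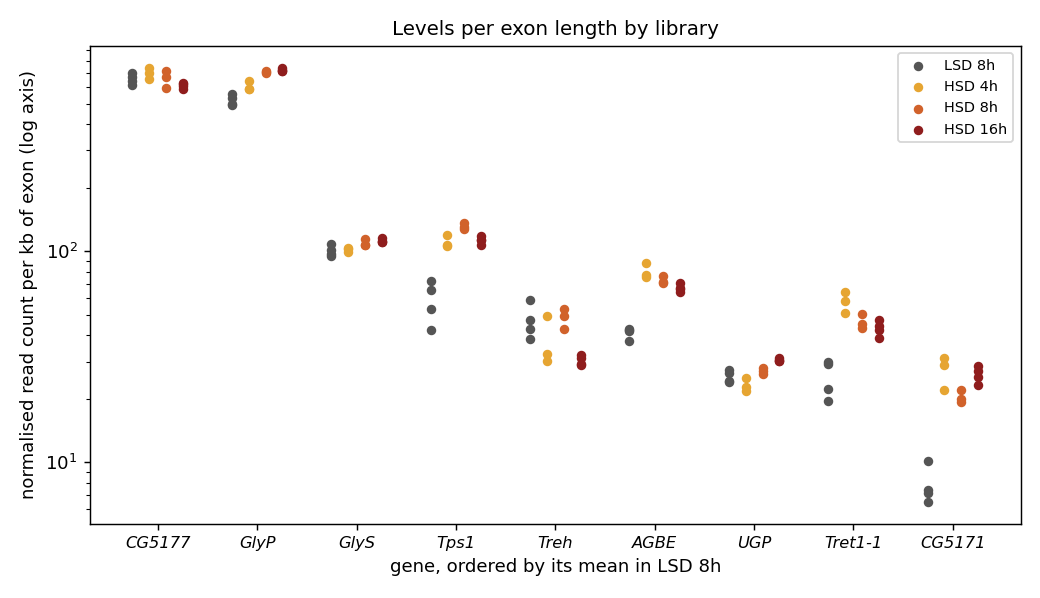
Normalised read count per kb of exon (y axis, log axis) of each gene (x axis, ordered by its mean on LSD), with 1 point per library and groups side by side. CG5177 and GlyP lie at 492 or more in every library, and CG5171 lies at 31.0 or less.

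Other genes of the pathway were taken from a list of 12, of which 9 were measured. At 8 h, 5 of them rose and 1 fell (median log2 difference 0.28); at 4 h, 5 rose and 2 fell (0.19); at 16 h, 4 rose and 2 fell (0.11). The 4 with the smallest adjusted p were Gbs-70E, CG8475, Pmm45A and CG7766. Gbs-70E encodes a subunit that targets protein phosphatase 1 to glycogen, where the phosphatase acts on the glycogen enzymes. It lay at 32.7, 29.4, 39.6 and 32.6 in LSD replicates 1 to 4, at 147, 158 and 147 in HSD at 4 h, at 127, 143 and 133 at 8 h and at 132, 127, 168 and 131 at 16 h. No HSD library was below 3 times any LSD library's level. Its rise was 4.46-fold at 4 h (adjusted p = 7.32e-08), 3.97-fold at 8 h (log2 1.99, SE 0.11, adjusted p = 1.06e-07) and 4.11-fold at 16 h (adjusted p = 2.83e-08), larger than the fold of any of the 9 members. Its relative Gbs-76A, outside the naming rule and chosen after its values were seen, lay at 137 ± 9.59 on LSD and 113 ± 10.8 in HSD at 4 h, where it fell by 0.28 on the log2 scale (adjusted p = 0.0211; at 8 h and 16 h adjusted p = 0.0701 and 0.178).

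Phosphorylase kinase activates glycogen phosphorylase. The genes of its probable regulatory subunits, CG7766 and CG8475, rose together, and that of its catalytic subunit, PhKgamma, was not called. At 8 h CG7766 rose 1.38-fold to 210 ± 9.03 (n = 3), against 152 ± 10.2 on LSD (n = 4; adjusted p = 0.000107), and CG8475 rose 1.34-fold, from 102 ± 5.85 to 137 ± 1.02 (adjusted p = 7.35e-05). Both were also higher at 4 h (1.23-fold and 1.37-fold) and at 16 h (log2 differences of 0.29 and 0.20). PhKgamma lay at 83.4 to 89.2 on average in all 4 groups.

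Pmm45A, named Pgm2a in the reference annotation and a relative of phosphoglucomutase, fell by 0.40, 0.49 and 0.45 on the log2 scale at 4, 8 and 16 h (adjusted p = 0.000518, 0.000112 and 9.02e-05), from 64.3 ± 5.76 on LSD to 45.6 ± 1.41 at 8 h. Outside the rule, Pgm (phosphoglucomutase, which links glucose 1-phosphate and glucose 6-phosphate) rose 1.14-fold at 4 h (adjusted p = 0.0362) and 1.21-fold at 8 h (adjusted p = 0.00297). At 16 h its log2 difference of 0.11 was not called and the groups overlapped (adjusted p = 0.118), and from 8 h to 16 h on HSD it fell by 0.17 (adjusted p = 0.0493). CG9485, the glycogen debranching enzyme gene, rose 1.22-fold, 1.25-fold and 1.14-fold at 4, 8 and 16 h (adjusted p = 0.00486, 0.00174 and 0.0173). Glycogenin, which primes new glycogen particles, fell by 0.29 on the log2 scale at 16 h, from 322 ± 15.5 to 264 ± 6.11 (n = 4 each; adjusted p = 0.000634).

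**Figure D5:**
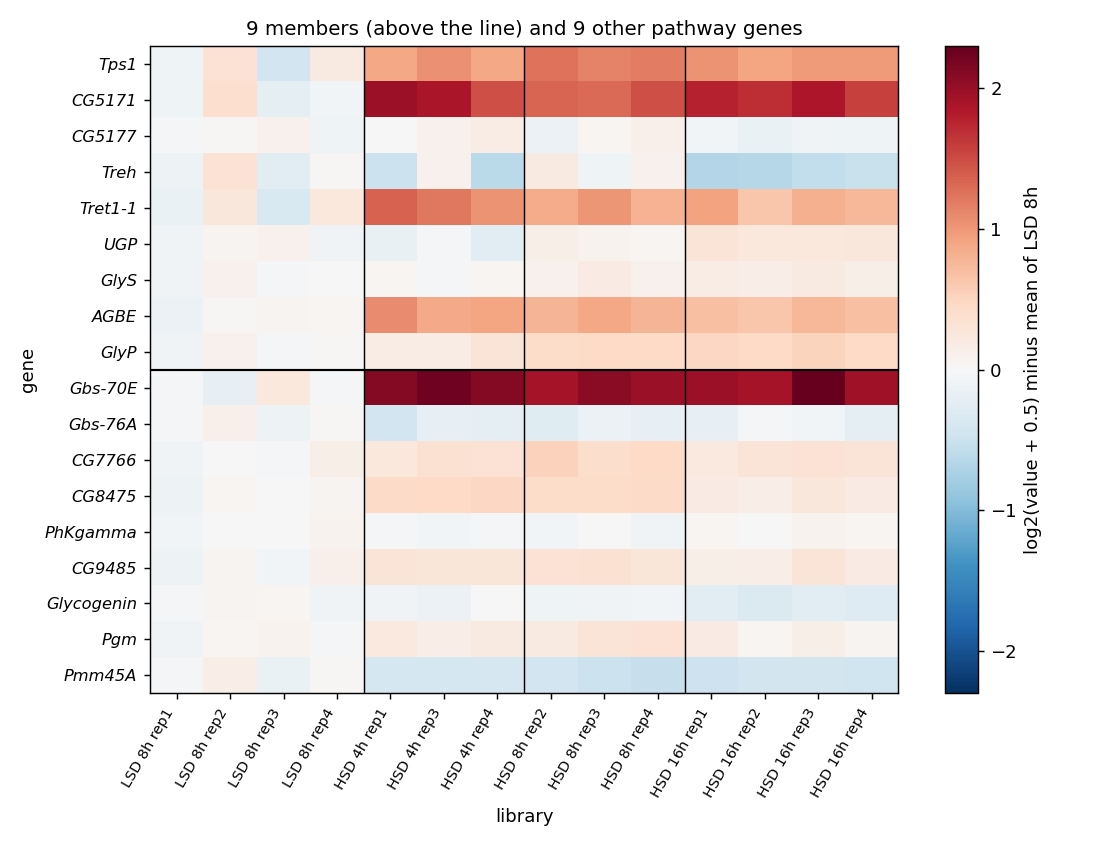
Log2(value + 0.5) minus the LSD mean (colour) of the 9 genes, above the line, and of 9 other pathway genes, below it (y axis), in each of the 14 libraries (x axis). Gbs-70E and CG5171 show the strongest red in all 10 HSD libraries, and Pmm45A is blue in all 10.

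Of 5 measured genes of hexose phosphate metabolism, 3 rose at 8 h, 1 at 4 h and 2 at 16 h, where fbp (fructose-1,6-bisphosphatase) fell by 0.26 on the log2 scale (adjusted p = 0.00751). G6P, also on this list, had a low level (group means of 1.34 to 1.41) and was not called against LSD. Pgi, the glucose-6-phosphate isomerase gene, rose 1.37-fold at 8 h and reached 781 ± 20.3, against 572 ± 31.7 on LSD (adjusted p = 5.57e-05). Hex-A and Hex-C, which encode hexokinases, rose 1.21-fold and 1.36-fold at 8 h (adjusted p = 0.0162 and 0.00764), and at 4 h their log2 differences were -0.08 and -0.16 (adjusted p = 0.484 and 0.31).

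Among 6 hormone and kinase genes that act on these stores, 3 rose at 8 h, 2 rose and 1 fell at 4 h and 1 rose at 16 h. AkhR, the receptor gene of adipokinetic hormone, which mobilises stored sugar and fat, rose 2.89-fold at 8 h and reached 35.8 ± 3.07, against 12.4 ± 3.33 on LSD (adjusted p = 3.11e-05). It was higher in every HSD library than in every LSD library. InR (insulin receptor) rose 1.47-fold at 8 h (adjusted p = 0.00689) and 1.39-fold at 4 h (adjusted p = 0.0198), with overlap between the groups, and was not called at 16 h (adjusted p = 0.0652). The kinase gene sgg, whose product phosphorylates glycogen synthase in mammals, rose 1.16-fold at 8 h (adjusted p = 0.0211) and was not called at 16 h (adjusted p = 0.344). The transcription factor gene foxo fell by 0.34 on the log2 scale at 4 h (adjusted p = 0.0409).

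Markers of the tissues that hold these enzymes moved as follows. Of 4 measured fat body markers (of 9 listed, none at 0 in all libraries of a group), 0 were called at 8 h, 0 at 4 h and 1 rose at 16 h. The latter was Lsp1gamma, close to the floor, with a mean of 0.328 on LSD (4 to 8 reads) and 1.69 at 16 h (18 to 50 reads). Log2 differences at 16 h were -0.34 for Rfabg, -0.39 for Mtp and 0.38 for Apoltp, none of them called. At an unadjusted limma p under 0.05, 1 (Mtp) was lower at 8 h and 0 differed at 4 h, and edgeR called 1 lower at 8 h and 0 at 4 h. At 16 h, 1 (Lsp1gamma) was higher and 1 (Mtp) lower at that unadjusted p, and edgeR called 1 higher and 0 lower. The summed fat body level was 3414 to 6680 on LSD, 3709 to 4501 in HSD at 4 h, 3293 to 3998 at 8 h and 3368 to 3917 at 16 h. Of 10 muscle markers 1 rose and 3 fell at 8 h, 1 rose at 4 h and 7 fell at 16 h, with sums of 41700 to 50021 on LSD, 42545 to 47766 at 4 h, 39596 to 43406 at 8 h and 36430 to 38645 at 16 h. Of 7 midgut markers 6 rose at 8 h, 1 at 4 h and 6 at 16 h, and their sums were 1184 to 1885 on LSD, 943 to 1915 at 4 h, 2542 to 3097 at 8 h and 3114 to 4011 at 16 h. Of 6 neuron markers 4 fell at 8 h, 1 at 4 h and 0 at 16 h, and their sums were 927 to 1120 on LSD, 806 to 913 at 4 h, 831 to 861 at 8 h and 825 to 995 at 16 h, so that those at 4 h and 8 h were below LSD without overlap. Of 6 hemocyte markers 0 were called against LSD by limma or by edgeR, and at an unadjusted p under 0.05 limma had 0 at 8 h, 0 at 4 h and 2 higher at 16 h. Their sums were 2365 to 4930 on LSD and 2859 to 3851 on HSD. Most of these sums came from the collagen genes vkg and Cg25C, with means of 1162 and 2110 on LSD. At 16 h 3 of the 6 (NimC1, He and Pxn) were above every LSD library and 0 below, beside 36.5% of all genes without overlap. Of 6 measured cuticle markers 0 were called at 8 h (0 at an unadjusted p and 0 by edgeR), 1 fell at 4 h and 2 at 16 h, and their sums were 223 to 344 on LSD and 138 to 346 on HSD. The part of these tissue differences in the results for the 9 genes was not tested.

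The genes whose profiles over the 14 libraries were most like each member were ranked by the root mean square difference of centred log2 values, among genes with a mean of at least 5. For Tps1 they were CG8839 (0.10), CG4302 (0.11) and CG6041 (0.12), against a standard deviation of 0.50 for Tps1 itself. For CG5171 they were Zw (0.20), CG12643 (0.21) and Vago (0.22), and for Tret1-1 CG7523 (0.15), CG10116 (0.15) and ref(2)P (0.16). AGBE was nearest to Odc1 (0.11), CG1882 (0.12) and CG8066 (0.12). Treh was nearest to CG42788 (0.15), RhoGAP19D (0.16) and CG15117 (0.18). Among the genes that varied little, GlyP was nearest to ND-75 (0.06), Mpcp (0.06) and CG32649 (0.06), and GlyS to CG7414 (0.04), Zir (0.05) and dlg1 (0.05). CG5177 was nearest to Tm1 (0.05), CG7115 (0.07) and Mf (0.07), and UGP to AlaRS-m (0.07), CG5037 (0.07) and Pex16 (0.07). The members' own standard deviations were 0.77 for CG5171, 0.48 for Tret1-1, 0.38 for AGBE and 0.34 for Treh. They were 0.21 for GlyP, 0.16 for UGP, 0.10 for CG5177 and 0.09 for GlyS. The small distances of GlyS and CG5177 are therefore a larger part of their own variation than that of Tps1. All libraries share the scaling, and these distances are a description over 14 libraries.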

How the data were processed

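Per the labels' protocols, ribosomal RNA was depleted, stranded libraries were made, and 75 bp single-end reads were run in 2 technical runs per sample. Per the submitters' processing notes, Trimmomatic, TopHat2 2.1.0, HTSeq and limma were used; the sources used here do not give the genome build, annotation, strand setting or low-expression filter, so values of overlapping, antisense and similar genes are uncertain. The deposited table of 10128 genes holds signal values, which by their pattern are the authors' read counts over a scaled library size (column sums 910679 to 1063358); 100% of them were whole multiples of 1 read within 0.01 read. A value of 0.117 to 0.182 corresponds to 3 reads, a floor for counting error only. The table's log2 fold changes and its adjusted p-values, per the file headers the authors' own, were used only for a count of member calls.

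Gene positions, exon lengths and overlaps come from Ensembl 115 (BDGP6.54), matched by gene ID (9990 of 10128). Values were tested with limma 3.58.1 in R 4.3.3 on the log2(value + 0.5) scale, keeping the genes that reached 1 in 3 or more libraries, with a mean per group, 10 residual degrees of freedom and a variance trend, two-sided. The design had assumed this test for the values whichever scaling they had. Ratios were compared with exact permutation tests of the absolute difference in means over libraries, adjusted over 9 tests. No 2 libraries of a group were the same library, since their reads differed by more than counting error (chi-square 12.9 to 100.8 for each degree of freedom). Alternatives covered pseudocount, filter, scaling, groups in the fit, trend, weights, threshold, a replicate block, each library left out, the 3 cuticle-rich libraries left out, and edgeR 4.0.16 on the recovered reads, which called 3452 genes at 8 h. The last 2 were added after the data were seen.

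The members and lists were chosen with earlier results of these data known. The naming rule took all 9 members, the 4 genes with the smallest adjusted p of each pathway and tissue marker list, the 3 most similar profiles per member, and TwdlJ. For muscle, midgut and neuron markers it was not followed, and they are given as counts and sums only. The measured fat body markers and the hemocyte markers NimC1, He and Pxn are named under it. The collagen genes Cg25C and vkg are named outside it.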

Additional observations from a re-analysis of the deposited data

Results flagged for a closer look

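AGBE in LSD replicate 1, at 87.2, stood apart from the other 3 LSD libraries (97.5 to 99.6), with a gap to the nearest of them of 0.834 of the group's range. Among 18 groups of 4 libraries examined (9 genes on LSD and at 16 h on HSD) it was the 1 that stood apart in this way, and chance gives about 1 in 20.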

How the results depend on the processing

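Each member's log2 difference was recomputed under 27 alternatives. The calls of Tps1, CG5171, Tret1-1 and AGBE against LSD at 4, 8 and 16 h held under all of them. Over all members and comparisons 1366 results kept direction and call, 45 lost a call, 28 gained one and 19 changed sign, none of the 19 past the threshold on either side. Causes were not tested, except where fewer samples or a stricter threshold act by construction.

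Under quantile normalization the sign changed for CG5177 at 8 h (-0.000588) and 16 h (0.0451) and for GlyS at 8 h (-0.00442) and 4 h (-0.0207) against LSD, for CG5171 from 4 h to 16 h (0.00885), and from 8 h to 16 h for Tps1 (0.0182), Tret1-1 (0.0960), CG5177 (0.0457) and AGBE (0.0768). With single libraries left out, the log2 difference ran from -0.0199 to 0.180 for Treh and -0.0483 to 0.0815 for CG5177 at 8 h, -0.00281 to 0.0591 for GlyS at 4 h and -0.201 to 0.0487 for CG5171 from 4 h to 16 h.

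Members called from 4 h to 8 h (1) became 2 with a filter of 5, with array weights and without the cuticle-rich libraries, and 0 with the 2 groups alone and at a threshold of 0.01. For 16 h against 4 h (5) they became 3 under quantile normalization and at 0.01. From 8 h to 16 h (1) they became 4 under quantile normalization and with the 2 groups alone, 3 with array weights and 0 at 0.01. With single libraries left out they ran from 0 to 2, 3 to 6 and 1 to 2 in these comparisons, beside 320 to 1274, 2763 to 3883 and 2041 to 3232 of all genes. Array weights called 1770 of all genes from 4 h to 8 h (931 without them). Quantile normalization called 3714 from 4 h to 16 h (3629 without it) and 3591 from 8 h to 16 h (2980). For the other settings named here, all-gene counts are given below only for the threshold of 0.01.

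Over all genes, the threshold of 0.01 called 2124, 1459 and 2553 at 8, 4 and 16 h against LSD (3479, 2449 and 4018 at 0.05), 2230 from 4 h to 16 h (3629), 174 from 4 h to 8 h (931) and 1510 from 8 h to 16 h (2980). With the 2 groups alone 1411 were called at 4 h, and with array weights 1770 from 4 h to 8 h, where leaving out single libraries gave 320 (without HSD 8 h replicate 2) to 1274.

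Same-numbered replicates did not pair the samples: correlations of their deviations ran from -0.460 to 0.350, 6 of 18 were over 0.1, and 4 of 14 libraries correlated best with their own number. A replicate block gave 3 members from 4 h to 16 h, 0 members and 159 genes from 4 h to 8 h, and -0.00715 for Tps1 from 4 h to 16 h. With the block GlyP lost its call from 4 h to 8 h (limma adjusted p = 0.159), and Tret1-1 (0.0736) and CG5177 (0.114) lost theirs from 4 h to 16 h.

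For the ratios, leaving out 1 LSD library, or 1 of 3 HSD libraries, gave adjusted p of 0.0667 to 0.1 (exact permutation tests adjusted over 9), since fewer samples raise the smallest p some of the tests can give. With single libraries left out, the differences at 8, 4 and 16 h from LSD ran from 1.064 to 1.183, 1.18 to 1.46 and 1.53 to 1.64 for Tps1 to Treh. They ran from -0.337 to -0.293, -0.228 to -0.160 and -0.318 to -0.306 for GlyS to GlyP, and from 1.29 to 1.53, 1.58 to 1.92 and 1.75 to 1.99 for CG5171 to CG5177.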
